A study of Mus musculus with 3 samples.

Results

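The macrophage genes measured in these mouse embryonic fibroblast cultures were 34 named genes of 35451 on the array, read by 45 probes of 55681. They were chosen by name, as genes that macrophages are known to use, and probes carrying an older name were included, such as Emr1 for Adgre1 and Sfpi1 for Spi1. The cultures (MEF) were mixed primary cells grown from the trunk of C57BL/6 embryos, and no cell type was purified. n-Butylidenephthalide (BP) is a compound extracted from Angelica sinensis. Total RNA was compared from MEF without BP (the control), MEF with 10 µg/ml BP (BP10) and MEF with 40 µg/ml BP (BP40), with 1 array per condition and 3 arrays in all. The deposited labels give no treatment for the control, whereas the study's text calls it DMSO, and how long the cells for the arrays were kept in BP is not given in the sources used here.

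Macrophages are phagocytes of the blood lineage that settle in embryonic tissues early and stay there. Their gene program is set by the transcription factor PU.1 (gene Spi1), and their survival depends on the receptor CSF1R and its ligands CSF1 and IL-34. They take up antibody-coated and dying material through Fc, scavenger and lectin receptors, many of which signal through the adaptors TYROBP and FCER1G, and they digest it in lysosomes. Tissue macrophages also make complement C1q.

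Each probe is a 60-base stretch of DNA that binds the transcript of its gene, and a reading counts for a macrophage gene only as far as these letters belong to it. The probes of 6 members are shown because they carry the lineage factor (Spi1), the pan-leukocyte marker (Ptprc), the adaptor (Tyrobp), chains of the secreted complement protein C1q (C1qa and C1qb) and a member called at both doses (Lyz2). Positions are those of the array design on the mm9 build, and a span above 60 bases means that the probe joins separate stretches of the genome. Capitals in Ptprc mark the stop codon, and capitals in Tyrobp mark the codons from the first tyrosine to the first leucine of its signaling motif, the immunoreceptor tyrosine-based activation motif, of which the probe holds only the start.
Spi1, chr2:90939665-90953452, plus strand: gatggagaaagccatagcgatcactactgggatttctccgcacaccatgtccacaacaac
Ptprc, chr1:139961083-139961142, minus strand: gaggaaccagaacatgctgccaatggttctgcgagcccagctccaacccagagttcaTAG
Tyrobp, chr7:31200651-31202378, plus strand: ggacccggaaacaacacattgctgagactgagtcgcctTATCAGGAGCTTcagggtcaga
C1qa, chr4:136452409-136452468, minus strand: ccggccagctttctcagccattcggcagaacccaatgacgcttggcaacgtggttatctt
C1qb, chr4:136436578-136436637, minus strand: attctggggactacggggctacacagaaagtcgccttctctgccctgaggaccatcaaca
Lyz2, chr10:116719175-116719234, minus strand: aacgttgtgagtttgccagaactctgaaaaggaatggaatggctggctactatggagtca

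All 3 arrays lay on 1 slide. The BP arrays were read in the same scan session and the control array in another, so an effect of BP and an effect of the session cannot be told apart wherever the control is used. The signal at the 75th percentile was 1744 (control), 1402 (BP10) and 1214 (BP40), and 85.2%, 73.6% and 74.6% of all genes were well above background. The level of a gene is given below as its log2 signal relative to that percentile of its own array, so a level of 0 lies at the percentile, and a log2 ratio is the difference of such levels between 2 arrays. A gene was called where the ratio reached 2-fold and 1 or both of the arrays compared showed its probe well above background. With 1 array per condition there was no spread between cultures and no test. The error printed with a ratio is the scanner software's own error of both spots, which covers the reading of an array and not the difference between cultures. A second yardstick is the SD between 2 probes of the same gene, whose median over 4731 genes was 0.29 for the log2 ratio of BP10 against control, 0.22 for BP40 against control and 0.21 for BP40 against BP10.

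Transcripts of macrophage genes were measured in the control culture and in both BP cultures. Of the 34 members, 32 were well above background on each array and 31 on all 3, beside 70.5% of all genes on all 3. On the control array 13 members lay at or above the 75th percentile, against 31.2% of all genes, and the numbers were 14 on BP10 and 15 on BP40. The 14 fibroblast genes checked for the label, such as the collagen gene Col1a1 and the matrix gene Fn1, were all above background on the 3 arrays, with Col1a1 at a level of 7.83 and Fn1 at 7.47 on the control array. The summed signal of the fibroblast genes, in units of the 75th percentile, was 1900, 1396 and 1556 on the control, BP10 and BP40 arrays, and that of the 34 macrophage genes was 40.0, 38.8 and 47.4. Lyz1 alone gave 9.11, 9.51 and 13.6 of the latter, and the sum without it was 30.9, 29.3 and 33.8. In RNA from a whole culture, fewer macrophages and less RNA of a gene per macrophage cannot be told apart.

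**Figure D1:**
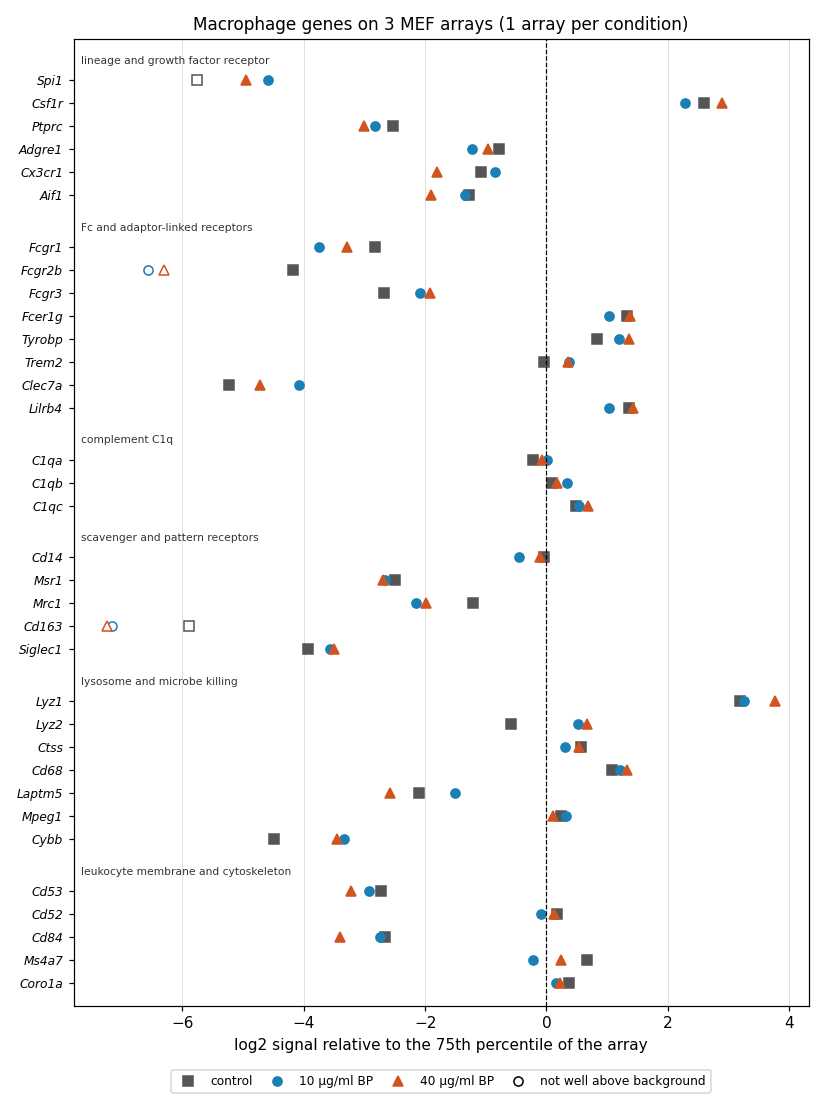
Level of each of the 34 macrophage genes on the control, BP10 and BP40 arrays, as log2 signal relative to the 75th percentile of the array (horizontal axis), ordered by role. Each marker is 1 array, open markers are not well above background, and the dashed line is the 75th percentile. Cd163 is open on all 3 arrays, Fcgr2b on both BP arrays and Spi1 on the control array, while the markers of most other genes lie close together.

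As a group, the macrophage genes stood at similar levels on the 3 arrays. For BP10 against control, 3 of 34 members were called higher (Lyz2, Cybb and Clec7a), beside 2.60% of all genes, and 0 were called lower, beside 10.3% of all genes (12.9% called in either direction). For BP40 against control, 2 members were called higher (Lyz2 and Cybb), beside 2.50% of all genes, and 0 lower, beside 9.0% (11.5% in either direction). For BP40 against BP10, 1 member was called lower (Laptm5), beside 1.77% of all genes, and 0 higher, beside 1.88% (3.65% in either direction). Both comparisons with the control use the same control array, so the 2 members called at both doses are not repeated evidence.

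The median log2 ratio of the members was -0.07 for BP10 against control, where that of all genes was -0.23, and its sign turned to 0.08 after quantile normalization and to 0.16 with the median of all genes at each brightness subtracted. For BP40 against control the members' median was -0.03, beside -0.11 for all genes, with a value of 0.01 after the normexp background correction. For BP40 against BP10 it was 0.10, beside 0.06. The members' median was nearer to 0 than that of all genes in both comparisons with the control under this scaling, but not under every other: after quantile normalization the medians of members and all genes were 0.08 and -0.05 on BP10, and -0.04 and -0.01 on BP40. With the brightness median subtracted, which sets all genes to 0, the members' median was farther from 0. Within 0.5 of 0 lay 23 of 34 members for BP10 against control (67.6%), beside 51.5% of all genes. The corresponding shares were 61.8% of members and 54.1% of all genes for BP40 against control, and 79.4% and 71.5% for BP40 against BP10.

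**Figure D2:**
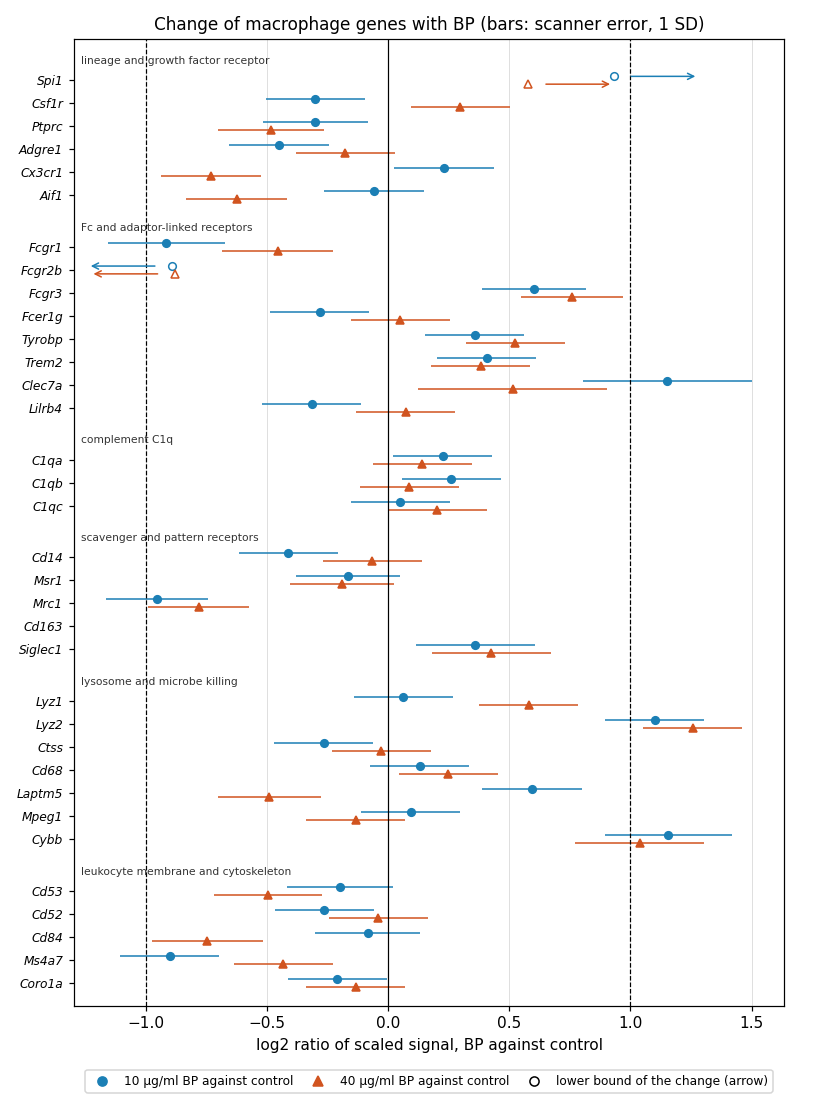
Log2 ratio of each macrophage gene for BP10 and BP40 against control (horizontal axis), ordered by role, with bars for the scanner error (1 SD). Open markers with arrows are approximate lower bounds of the change, taken against the dimmest signal well above background. Dashed lines mark 2-fold, and Cd163, below background on all arrays, has no marker. Lyz2 and Cybb stand past 2-fold at both doses (1.10 and 1.26, 1.16 and 1.04), and Clec7a at 10 µg/ml (1.15).

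The lineage genes and the growth factor receptor gave no called member in any comparison. Over all genes, 12.9% were called on BP10 and 11.5% on BP40 against control. The role groups hold from 3 to 8 genes, so a count of calls in any of them says little. Spi1, which encodes PU.1, had levels of -5.77 (control), -4.60 (BP10) and -4.95 (BP40), and the control reading was not well above background. Taken against the dimmest control signal still well above background (-5.53), its signal was 1.91-fold higher on BP10 and 1.49-fold higher on BP40. On the log2 scale these are 0.93 and 0.58, beside scanner errors of 0.45 and 0.48. That signal is not a firm limit, as some probes not well above background read higher, such as Cd2 at -5.38 on the control array. Csf1r, the receptor for CSF1 and IL-34, lay at 2.59, 2.29 and 2.89, which gave log2 ratios of -0.30 and 0.30 with an error of 0.20 each. A second Csf1r probe read 0.82 and 0.61 for the same ratios, so the direction at 10 µg/ml differed between probes.

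Ptprc, the leukocyte phosphatase CD45, lay at -2.52, -2.82 and -3.01 on the control, BP10 and BP40 arrays. Its ratios of -0.30 and -0.48 were within 2-fold, and the first became 0.11 with the brightness median subtracted. Adgre1, the F4/80 surface marker of mouse macrophages, lay at -0.78, -1.23 and -0.96, and its ratios of -0.45 and -0.18 had the same sign in its second probe (-0.42 and -0.31). Both markers were a little lower on the BP arrays, by less than 2-fold. Cx3cr1, the fractalkine receptor, lay at -1.08, -0.85 and -1.81, and Aif1, the calcium-binding protein IBA1, at -1.28, -1.34 and -1.90. For these 2 genes the BP40 array was the lowest of the 3, with ratios to the control of -0.73 for Cx3cr1 and -0.63 for Aif1.

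Among the 8 Fc receptor and adaptor-linked genes, 1 was called, Clec7a on BP10. Clec7a encodes dectin-1, a receptor for fungal beta-glucan, and its probe at chr6:129411739-129411798 (mm9, minus strand) was dim, at -5.23, -4.08 and -4.72. The ratio of BP10 to control was 1.15 ± 0.35 (scanner error), a 2.22-fold difference, and that of BP40 was 0.51 ± 0.39. After the normexp correction the BP10 ratio was 0.70, below 2-fold. Clec7a was lowest on the control array and highest on BP10, with the BP40 reading between them.

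The Fcγ receptors differed among themselves. Fcgr1, the high-affinity receptor for IgG, lay at -2.83, -3.74 and -3.28, with ratios of -0.92 and -0.46. Fcgr3, a low-affinity activating receptor, lay at -2.68, -2.08 and -1.93, with ratios of 0.60 and 0.76. The 2 activating receptors thus stood on opposite sides of the control at both doses. Fcgr2b, the inhibitory receptor, was well above background only on the control array, at -4.18. It was 1.85-fold lower on BP10 and 1.84-fold lower on BP40, taken against the dimmest signals well above background there. Those signals are not firm limits either, and the scanner errors of the log2 ratios were 1.02 and 0.79. The raw readings of -6.57 and -6.30 on the BP arrays are below what the scanner separates from background.

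Tyrobp, Fcer1g, Trem2 and Lilrb4 were near or above the 75th percentile on all arrays and within 2-fold of the control. Tyrobp, the adaptor whose probe holds the start of its signaling motif, lay at 0.83, 1.19 and 1.36, with ratios of 0.36 and 0.52. Trem2, a lipid receptor that signals through it, lay at -0.04, 0.37 and 0.35, with ratios of 0.41 and 0.38. Both genes were above the control on each BP array and kept that direction under every other scaling and correction tried. Neither has another probe on the array to compare. Fcer1g, the other adaptor, lay at 1.32, 1.04 and 1.37, with ratios of -0.28 and 0.05. Lilrb4, an inhibitory receptor with close relatives in the genome, followed with ratios of -0.32 and 0.07, and both its probes gave nearly the same values (-0.33 and 0.05 in the second).

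The 3 complement C1q chains, which assemble into 1 secreted protein and are encoded side by side on chromosome 4, gave like readings. C1qa lay at -0.22, 0.01 and -0.08 on the control, BP10 and BP40 arrays, C1qb at 0.08, 0.34 and 0.17, and C1qc at 0.49, 0.54 and 0.69. Their ratios to the control ran from 0.05 to 0.26 on BP10 and from 0.09 to 0.20 on BP40, all above 0 and below the SD between probes of a gene. None was called.

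The scavenger and pattern receptors held 0 called members. Mrc1, the mannose receptor, lay at -1.20, -2.16 and -1.99, and its ratios of -0.95 ± 0.21 and -0.78 ± 0.21 were the lowest of the measured members on both BP arrays against the control. Both BP readings were below the control reading, just inside 2-fold, and the BP10 ratio passed 2-fold after the normexp correction. Cd14, which binds bacterial lipopolysaccharide, lay at -0.04, -0.45 and -0.11, with ratios of -0.41 and -0.06. Msr1, the class A scavenger receptor, lay at -2.50, -2.67 and -2.69, and its 2 probes disagreed in sign (ratios of -0.17 and 0.10 on BP10). Siglec1, a sialic acid receptor, lay at -3.92, -3.56 and -3.50 in the probe used, with ratios of 0.36 and 0.43, whereas its other probe gave -1.04 and -0.69, so no direction can be given. Cd163, the haemoglobin scavenger receptor, was not well above background on any array.

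The lysosomal and microbe-killing genes held 2 of the 3 members called on BP10 and both members called on BP40. With 7 genes in the group, and 12.9% and 11.5% of all genes called, this count alone cannot set the group apart. Lyz2, the lysozyme of macrophages and other myeloid cells, lay at -0.58 in the control, 0.52 in BP10 and 0.68 in BP40. Both BP readings were higher, by 1.10 ± 0.20 (2.15-fold) and 1.26 ± 0.20 (2.39-fold). The signal before scaling was also higher, at 1166 (control), 2009.9 (BP10) and 1939.5 (BP40), although the BP arrays were dimmer as a whole. Over the other scalings, corrections, probe choices and the series table the ratio ran from 1.10 to 1.19 on BP10 and from 1.17 to 1.28 on BP40, past 2-fold in all 6 for each dose. The probe choice and the series table could not move it, as Lyz2 has no second probe and the series table holds the same intensities. Lyz2 was the only member past 2-fold at both doses in all 6 settings.

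Lyz1, its neighbour on chromosome 10 and the lysozyme best known from the gut, lay well above the 75th percentile, at 3.19, 3.25 and 3.77. Its ratios of 0.06 and 0.58 were below those of Lyz2 and within 2-fold. The 2 genes are closely alike in sequence, and whether either probe also binds the other transcript was not tested. Cybb, the NADPH oxidase subunit gp91phox that makes superoxide against microbes, is encoded on the X chromosome (probe at chrX:9013216-9013275, mm9, minus strand) and lay at -4.49, -3.33 and -3.45. Both BP readings were higher than the control, with ratios of 1.16 ± 0.26 (2.23-fold) and 1.04 ± 0.27 (2.05-fold). Cybb is dim, and its call depended on the processing at both doses. On BP10 it was past 2-fold in 5 of 6 settings, with a lowest ratio of 0.92 after the normexp correction, and on BP40 in 4 of 6, with a range from 0.86 to 1.58. Cybb also has no second probe, so the probe choice and the series table could not move its ratio.

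The other lysosomal members were within 2-fold of the control. Ctss, the protease cathepsin S, lay at 0.57, 0.30 and 0.54. Cd68, a lysosomal membrane protein of macrophages, lay at 1.08, 1.20 and 1.32 in the probe used. Its second probe was far dimmer, at -3.73, -3.43 and -3.85, with ratios of 0.30 and -0.12. Mpeg1, the pore-forming protein perforin-2, lay at 0.23, 0.33 and 0.10 in the probe used. Its second probe was well above background only on the control array, at -4.96. In the probes used, the ratios of these 3 genes to the control ran from -0.26 (Ctss on BP10) to 0.25 (Cd68 on BP40). Laptm5, a lysosomal protein of blood cells, was the exception, at -2.09, -1.50 and -2.59, higher than the control on BP10 (0.59) and lower on BP40 (-0.49).

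The 5 leukocyte membrane and cytoskeleton genes were all below the control on both BP arrays, and none was called. Most genes lay on that side: of all genes measured on both arrays, 16502 of 25770 on BP10 and 14415 of 26158 on BP40. Of the 31 members so measured, 16 were below the control at each dose. Ms4a7, a membrane protein of the MS4A family, lay at 0.67, -0.23 and 0.24, with ratios of -0.90 and -0.43. Cd84, an adhesion receptor of the SLAM family, lay at -2.65, -2.74 and -3.40, with ratios of -0.08 and -0.75, and its second probe gave 0.29 on BP40. Cd53, a tetraspanin, had ratios of -0.20 and -0.50, Cd52, a small glycoprotein of leukocytes, had -0.26 and -0.04, and Coro1a, an actin-binding protein, had -0.21 and -0.13. The low side was not kept by every gene under other processing: the BP10 ratios of Cd53 and Cd84 and the BP40 ratio of Cd52 changed sign under some scalings or corrections.

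Both BP arrays were scanned in the same session, so BP40 against BP10 is free of the difference in scan session. Laptm5 was 2.12-fold lower on BP40 than on BP10 (log2 ratio -1.08 ± 0.21), and its second probe gave -0.97. Cx3cr1 came next, at -0.96 ± 0.21 in the probe used and -1.66 in its second probe, and it was past 2-fold where the median of its probes was taken. For both genes the BP10 reading was above the control and the BP40 reading below it, in each of their probes, although the Cx3cr1 ratio of BP10 to control turned to -0.12 after the normexp correction. Cd84 (-0.66), Clec7a (-0.64) and Aif1 (-0.57) were also lower on BP40, the first in only 1 of 2 probes (0.30 in the other). Csf1r (0.60) and Lyz1 (0.52) were higher on BP40, with the other 2 Csf1r probes below 0 (-0.21 the lowest). Of 32 members measured on both arrays, 18 had a ratio above 0 and 14 below, beside 60.5% above 0 among the 25102 genes measured on both.

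**Figure D3:**
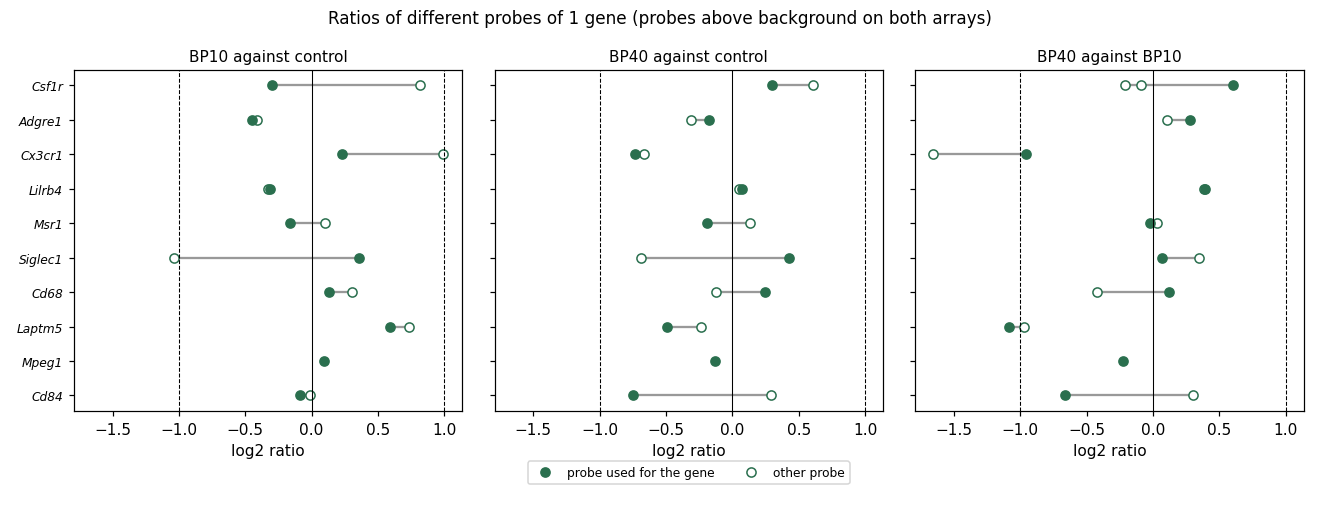
Log2 ratios of the 10 macrophage genes read by several probes, for the 3 comparisons, with each probe well above background on both arrays as a point (filled for the probe used, open for the others). The probes of Laptm5 lie together on the same side of 0 in every comparison, those of Cx3cr1 lie on the same side but apart (0.23 and 0.99 for BP10 against control), and those of Siglec1 lie on opposite sides of 0 against the control (0.36 and -1.04 on BP10).

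Dim genes read lower on the BP arrays as a whole, so the ratio of a member is best read beside genes of its own brightness. At mean levels from -4 to -2 the median of 7138 genes was -0.42 for BP10 against control and -0.39 for BP40, and at levels from 0 to 2 the median of 4436 genes was -0.05 and 0.05. The 9 members of the dimmer class had medians of -0.08 and -0.46, and the 13 members of the brighter class had 0.05 and 0.07. Against the 10th to 90th percentile of genes of like brightness, 4 of the 31 members well above background on both arrays stood above the band for BP10 against control (Clec7a, Lyz2, Laptm5 and Cybb) and 1 below it (Ms4a7), where 10.3% and 9.17% of the genes so measured lie. Of the members with only a bound, Spi1 lay above the band on BP10 and within it on BP40, and Fcgr2b within it on both. For BP40 against control 5 measured members stood above it (Fcgr3, Tyrobp, Lyz1, Lyz2 and Cybb) and 0 below, beside 10.2% and 9.16% of genes. For BP40 against BP10, Csf1r stood above the band and Cx3cr1, Aif1, Laptm5 and Cd84 below it, beside 9.50% and 9.51% of genes.

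**Figure D4:**
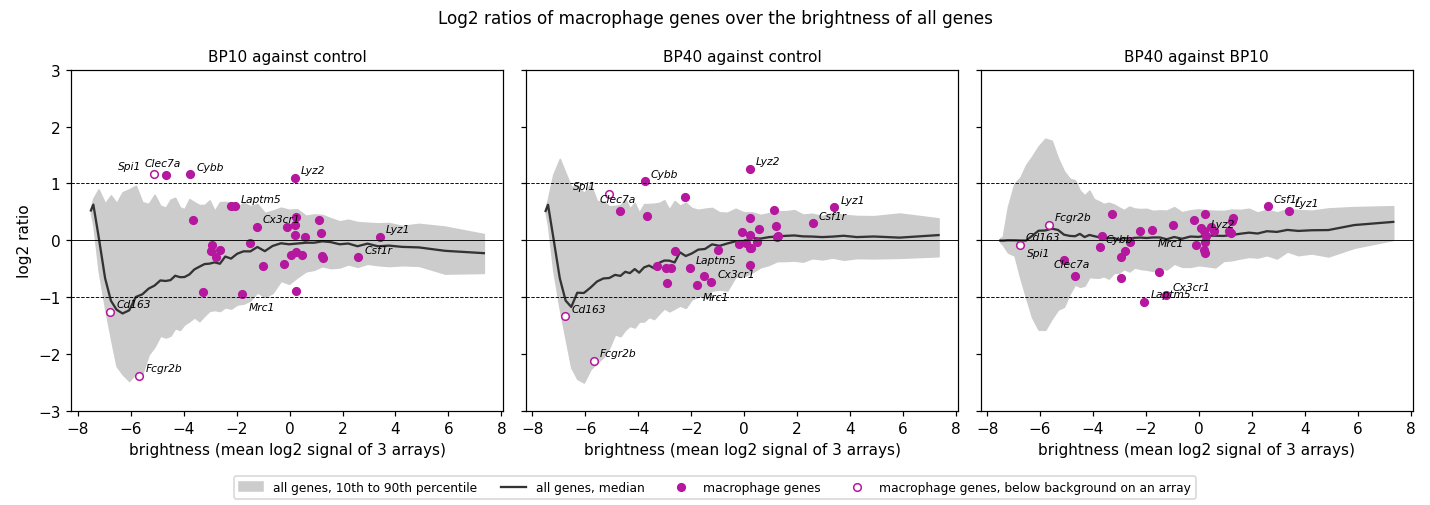
Log2 ratio (vertical axis) against brightness, the mean log2 level of the 3 arrays (horizontal axis), for the 3 comparisons. The line and grey band are the median and the 10th to 90th percentile of all 35451 genes in 50 brightness classes, points are the 34 macrophage genes, and open points are below background on an array. Lyz2 and Cybb lie above the band in both comparisons with the control, and Laptm5 and Cx3cr1 lie below it for BP40 against BP10.

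The promoters of the members were searched for GAGGAA, the core of the sequence that PU.1 binds, and its reverse complement TTCCTC, from 250 bases before to 50 bases after each start in the RefSeq table of GRCm38.p6. Of 29 promoters in the table for 24 members, 18 held the letters (62.1%, in 16 genes), and so did 28.3% of all 32851 promoters. The longer GAGGAAGT or its reverse complement ACTTCCTC, which contains the shorter motif, was in 3 member promoters (10.3%, those of C1qc, Cd53 and Ctss) and in 3.20% of all. These are matches of letters and say nothing of binding in these cells. Neither lysozyme gene, Lyz1 nor Lyz2, held GAGGAA in the window, whereas Cybb and Clec7a did. In Cybb no match lay wholly before the start. The stretches below show the matches in capitals, with 30 bases on each side, for C1qc, whose longer motif lies wholly before the start, for Cd53 and Ctss, and for Laptm5, the member called between the doses. The longer motif of Cd53 lies after the start and that of Ctss spans it, so for these genes the shorter match before the start is shown.
C1qc, chr4:136893072-136893139, minus strand: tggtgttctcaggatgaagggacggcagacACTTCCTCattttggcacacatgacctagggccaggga
Cd53, chr3:106790153-106790218, minus strand: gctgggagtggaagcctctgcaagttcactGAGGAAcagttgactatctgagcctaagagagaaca
Ctss, chr3:95526592-95526657, plus strand: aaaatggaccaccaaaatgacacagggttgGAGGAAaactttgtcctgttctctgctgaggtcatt
Laptm5, chr4:130913248-130913313, plus strand: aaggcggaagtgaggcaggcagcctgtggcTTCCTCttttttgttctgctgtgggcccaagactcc

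Other genes of the same cells and pathway were read from lists drawn up by function. Over all genes, 70.5% were above background on all arrays. Against the control, 2.60% were called higher and 10.3% lower on BP10, and 2.50% and 9.0% on BP40. Of 32 other myeloid genes, 25 were above background on all arrays. On BP10 1 was called higher and 2 lower, and on BP40 2 were called higher (Slc11a1 and H2-Ab1), while Itgal, Marco and Vsig4 were among those called lower; H2-Ab1 and Vsig4 are named after their values were seen. H2-Ab1, a chain of the class II antigen-presenting molecule, lay at -1.61, -2.56 and -0.11 and was higher on BP40 than on BP10 by 2.45 on the log2 scale. Its partner chain H2-Aa was not well above background on any array. The related genes H2-Eb1 and Cd74, also named after their values were seen, did not follow. Both were above background on all arrays, with -0.28 and 0.11 for BP40 against BP10. Slc11a1, the metal transporter of phagosomes, was called higher at both doses (1.17 and 1.12). Marco, a scavenger receptor, was called lower at both (-1.04 and -1.03), and so was the integrin gene Itgal (-1.35 and -1.89), whose 2 other probes gave ratios above 0. Itgam, the integrin chain CD11b, had ratios of -0.44 and -0.42 (from -1.09 to -0.71 on BP10 and from -0.70 to -0.67 on BP40 in its 2 other probes), and its partner Itgb2 had 0.24 and -0.07. Of 18 genes that signal below Fc and adaptor-linked receptors, 16 were above background on all arrays, and Dock2, an activator of the GTPase Rac, was the 1 called lower at each dose (-1.23 and -1.16), with only -0.55 and -0.30 in its other probe. Of 12 macrophage transcription factors, Irf5 was the 1 called, higher at both doses (1.90 and 1.29). Of the 6 ligands that act on macrophages none was called: Csf1, the ligand of Csf1r, lay at 4.98, 5.47 and 5.48 with ratios of 0.49 and 0.50 (at most 0.11 and 0.18 in its 2 other probes), and Il34, the other ligand, had -0.20 and -0.34.

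Markers of other cells that could carry some of the same transcripts were read beside the macrophage genes. Of all genes, 70.5% were above background on all arrays, so the counts below do not by themselves show that these cells were present. Against the control, 2.60% of all genes were called higher on BP10 and 2.50% on BP40, and 10.3% and 9.0% lower. Of 12 T cell genes, 8 were above background on all arrays, and 0 were called higher. Called lower were Cd247 and Cd28 on both BP arrays (Cd28 at -1.17 and -1.16), Cd3e, Lck and Zap70 on BP10, and Cd8b1 on BP40, and the CD3 chain genes Cd3d and Cd3g were not well above background on any array. The CD3 chain gene Cd3e lay at 1.60, 0.50 and 0.85, and Cd4 at 2.30, 1.61 and 1.67. Of 9 B cell genes, 7 were above background on all arrays and Blk was called lower on BP40. Of 9 granulocyte genes 4, of 8 mast cell genes 2 and of 9 erythroid genes 2 were above background on all arrays, with Camp and Cpa3 called higher on BP40 and the embryonic globin gene Hbb-y called lower on both BP arrays. Cpa3 was above background only on BP40 and Hbb-y only on the control array, so their calls rest on approximate bounds. S100a8 and Ngp of the granulocyte list were not well above background on any array. Of 5 megakaryocyte genes, Pf4, the chemokine platelet factor 4, was called lower at both doses (-1.64 and -1.25), and on BP10 Ppbp was called lower and Gp9 higher. Gp9 was above background only on BP10, so its call also rests on a bound. Of 8 endothelial genes the tight junction gene Cldn5 was called lower at both doses (-1.28 and -1.06) and Emcn on BP40. The genes called at 1 dose, and Cd4, were named after their values were seen. The summed signal of the T cell genes ran 9.80, 5.38 and 6.31 on the control, BP10 and BP40 arrays, mostly from Cd4 and Cd3e. That of the granulocyte genes ran 52.6, 65.2 and 52.5, mostly from Csf3r, a cytokine receptor gene at a level of 5.61, 5.97 and 5.62. The fibroblast genes had median ratios of -0.58 and -0.63, with Lum and Dcn of 14 called lower on BP10 and Lum, Col3a1 and Postn on BP40, and Lum, the matrix proteoglycan lumican, at -3.19 and -2.21. The part of these shifts in the values of the macrophage genes was not tested.

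**Figure D5:**
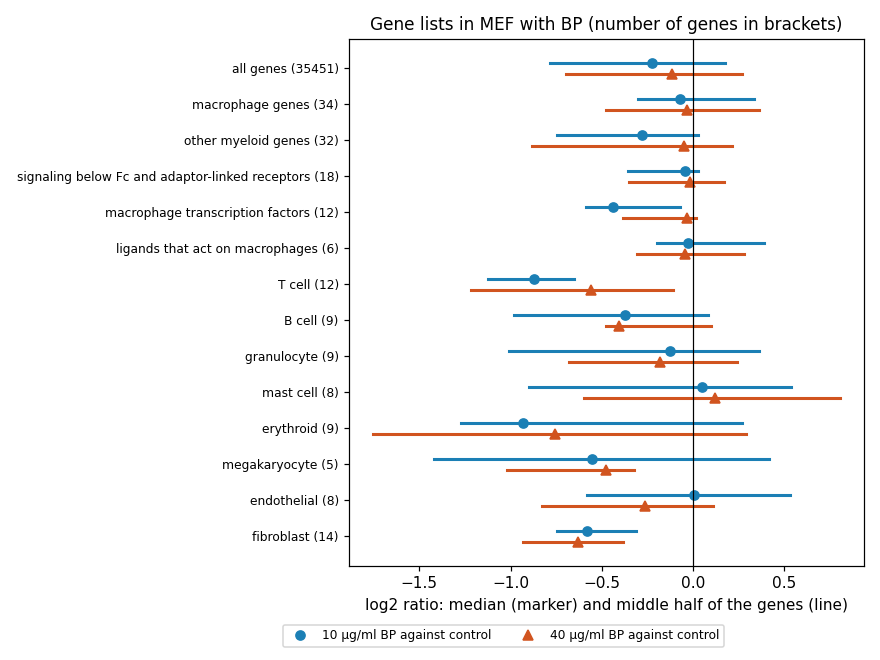
Median log2 ratio (marker) and the range of the middle 50% of the genes (line) for all genes, the macrophage genes and 12 other gene lists, for BP10 and BP40 against control (horizontal axis), with genes below background included. The macrophage genes have medians of -0.07 and -0.03, the fibroblast genes -0.58 and -0.63 and the T cell genes -0.87 and -0.56.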

How the data were processed

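The authors deposited the scanner output of 3 one-colour (Cy3) Agilent Mouse G3 arrays and a series table of the same intensity values. The intensity had been background-corrected and detrended by Feature Extraction 10.5.1.1 and not scaled between arrays. The series table matched the scanner values for 100% of spots within a relative tolerance of 0.0001. The study's text names GeneSpring GX and gives no normalization.

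From these values, log2 intensity less the 75th percentile of gene spots was taken on each array. Control spots and outlier-flagged spots were left out, spots of a probe were averaged, and a probe counted as above background when all its spots did. Probes were named by RefSeq symbol where the accession matched (26425 of 55681) and otherwise by the array. For a gene with several probes, the one with most arrays above background stood for it, and the brighter where these tied. Where only 1 of 2 arrays was above background, the ratio was bounded by the dim array's floor, its dimmest reading well above background. The probe's own reading was used if that was higher. Such a bound is approximate, as some probes not well above background read above the floor. Depth does not apply to arrays, and their number limits the precision. With 1 array per condition no p-value is given. All members are named. Some values of the other lists are not reported here. Of other lists, up to 4 genes called the same way at both doses are named, besides Itgam, Itgb2, Csf1, Il34 and fibroblast genes. The members and lists were chosen with earlier results of these data known. The alternatives were other filters on dim probes, cutoffs of 1.5-fold and 3-fold, quantile normalization, a 75th percentile over detected probes alone, brightness-wise centring of the ratios, a normexp background correction (offset 50), a gene's probes summarised by their median, and the series table. Simulated arrays with known changes were used to check the calls, and no error rate from them is given here. Python 3.11.15, numpy 2.4.6, pandas 2.3.3, biopython 1.88, R 4.3.3 and limma 3.58.1 were used.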

Additional observations from a re-analysis of the deposited data

How the results depend on the processing

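The counts of called macrophage genes are small and moved with the threshold and the scaling. For BP10 against control, 3 members were called, 6 without a filter on dim probes, 10 at 1.5-fold, 0 at 3-fold and 2 after normexp, which dropped Clec7a and Cybb and added Mrc1 as lower. For BP40 against control, 2 members were called, 4 without the filter, 8 at 1.5-fold, 0 at 3-fold, 5 after quantile normalization, 5 with the median at each brightness subtracted (both settings add Spi1, Fcgr3 and Clec7a), 1 when scaled on probes above background on all arrays and 1 after normexp. For BP40 against BP10, 1 member was called, 5 at 1.5-fold, 0 at 3-fold, 0 after normexp, and 2 when scaled on probes above background on all arrays, with the brightness median subtracted or with the median of all probes (each adds Cx3cr1). The other values moved by less than 1.5 times (counts) or less than the SD between 2 probes of a gene (medians), and members above background on all arrays were 30 instead of 31 where every probe had to be. Ratios beyond 0.5 on the log2 scale kept their sign in all 5 settings, namely 8 members on BP10 and 10 on BP40 against control, and 7 between the doses. The only probe choice among these settings was the median of a gene's probes, which changes nothing for a member without a second probe. Single probes did reverse: the other Cd84 probe gave 0.29 for BP40 against control and 0.30 between the doses. The other Csf1r probes were below 0 between the doses. The Csf1r median between the doses (0.19) left out the probe flagged as an outlier on the control array, which read -0.09. That setting therefore does not show that the Csf1r direction holds across its probes. Smaller ratios to the control turned in some of these settings for Csf1r, Ptprc, Cx3cr1, Aif1, Msr1, Siglec1, Lyz1, Mpeg1, Cd53 and Cd84 on BP10 and for Fcer1g, Lilrb4, Cd14, Msr1, Siglec1 and Cd52 on BP40. Quantile normalization shifted the median of all genes by 0.17 and 0.10 against the control for BP10 and BP40, and turned 923 genes higher and 3640 lower on BP10 into 1789 and 1766, whereas after normexp there were 474 and 967. For BP40 the main split was 886 and 3189, that after quantile normalization 1813 and 1520 and that after normexp 502 and 581. The cause of these shifts was not tested. No paired analysis was possible because there is a lone array for every condition, and for the same reason no replicate could be left out. Signal over background limits Spi1, Fcgr2b, Clec7a, Cybb and Cd163.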
